A study of Mus musculus with 23 samples.

Results

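The 43 genes described here carry cells through DNA replication and mitosis. They were chosen by name from the known machinery of the cell cycle, with earlier results of these data known, and make up 43 of the 47729 gene identifiers in the deposited table. By role they comprise 4 genes of G1/S control, 9 of origin licensing and the replicative helicase, 5 of the replication clamp and nucleotide supply, 7 of the mitotic cyclins, CDK1 and the anaphase-promoting complex, 7 of the mitotic kinases, passenger complex and spindle checkpoint, and 11 of the kinetochore, spindle and chromosomes. A cell commits to division when cyclin E and E2F transcription factors switch on the genes for replication, the MCM helicase loaded at origins opens the DNA, and the sliding clamp holds polymerases on the template. Later, cyclins A and B bound to CDK1 drive entry into mitosis, and the anaphase-promoting complex ends it by destroying them. Transcripts of these genes are made mainly in cycling cells, so in a tissue they track the share of cells in cycle, and conventional dendritic cells of the spleen keep a low capacity to divide after they arise from bone marrow precursors.

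RNA was sequenced from dendritic cells (DCs) sorted from the spleens of wild type BALB/c mice in 23 libraries. Each library comes from a pool of mice, which were untreated or labelled TLI, an abbreviation that the labels do not expand and that commonly stands for total lymphoid irradiation. The sorted subsets were DC1a (CD8 high, CD172 negative), DC1b (CD8 intermediate, CD172 positive), DC2 (CD8 low, CD172 high) and DC3 (CD8 negative, CD172 low). There were 2 untreated pools and 4 TLI pools, with no DC2 library of TLI pool 2, which gave 8 untreated and 15 TLI libraries. By the labels, batch 1 holds the untreated pools with TLI pools 1 and 2, and batch 2 holds TLI pools 3 and 4, so that in TLI mice batch and pools cannot be told apart, and untreated mice have no batch 2 library. Age and sex are not stated for these wild type BALB/c mice in the sources used here, nor is the time between TLI and the sort.

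Depth ran from 19256447 to 36997890 counts per library, and all 43 genes passed the filter on low expression. Levels are given as CPM, the counts of a gene divided by the total of its library and scaled with TMM factors. A gene with 3 counts or fewer was treated as at the floor, which lay at 0.0861 to 0.147 CPM depending on the library. The 5 markers shared by DCs (Flt3, Zbtb46, Itgax, H2-Ab1 and Cd74) were above that floor in every library. Their sum was 19600 to 89000 CPM in TLI pools 1 and 2 and 8610 to 28400 CPM in pools 3 and 4. Pools 1 and 2 were above pools 3 and 4 within each subset, and untreated mice had 18600 to 44900 CPM. Cd8a was at 375 to 913 CPM in the 6 DC1a libraries and at most 0.985 CPM in the 5 DC2 libraries, whereas Clec4a4 was at 98.7 to 279 CPM in DC2. The untreated DC1b libraries also held the plasmacytoid DC genes Siglech at 981 and 1650 CPM and Tcf4 at 868 and 465 CPM, against at most 38.2 and 84.9 CPM in every other library. A few libraries went against their labels in the sorting markers. Cd8a was at 0.363 CPM in the TLI DC1b library of pool 4, and Sirpa, the gene of CD172a, was at 8.78 CPM in the TLI DC2 library of pool 3, against 34 to 281 CPM in the other DC2 libraries. In DC3, labelled CD8 negative, Cd8a was at 37.9 CPM in the untreated library of pool 2. It was at 0.352 CPM in untreated DC3 cells of pool 1 and at most 6.22 CPM in TLI DC3 cells. Sirpa was also at 5.51 and 7.26 CPM in TLI DC1b cells of pools 3 and 4, against 162 and 145 CPM in pools 1 and 2 and 11.6 and 80.9 CPM in untreated DC1b cells.

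Beside the DC markers, transcripts of other blood cells set the 7 libraries of TLI pools 1 and 2 apart. The summed level of 7 erythroid genes was 13500 to 100000 CPM there, 127 to 5490 CPM in TLI pools 3 and 4 and 33.4 to 1490 CPM in untreated mice. All 7 erythroid genes were above the floor in each library of pools 1 and 2, whereas the erythroid factor Klf1 and the erythropoietin receptor Epor had 0 counts in all 8 libraries of pools 3 and 4. The 4 NK cell genes summed to 175 to 3950 CPM in pools 1 and 2, 0.12 to 84.5 CPM in pools 3 and 4 and 0 to 338 CPM in untreated mice, and Ncr1 had 0 counts in 7 of the 8 libraries of pools 3 and 4. The 5 T cell genes summed to 58.1 to 265 CPM, 2.3 to 34.0 CPM and 0.42 to 28.7 CPM in the same order, with Cd3e at 0 counts in 7 of the 8. The 8 neutrophil genes did not set pools 1 and 2 apart in every subset. In TLI DC1b cells they summed to 23300, 1460, 1880 and 10300 CPM in pools 1 to 4. The pools overlapped in DC1a as well, while in DC2 and DC3 pools 1 and 2 were above pools 3 and 4. In untreated mice the neutrophil sum was 16.9 CPM at most. The 6 macrophage genes summed to 58.2 to 2020 CPM in TLI pools 1 and 2, 5.44 to 356 CPM in pools 3 and 4 and 23.1 to 236 CPM in untreated mice, and within each subset pools 1 and 2 were above pools 3 and 4. The study's sort, described for another strain, lysed red cells, enriched CD11c positive cells and stained them for CD11c, B220, MHC class II, CD8a and CD172a. Dividing red cell precursors, NK cells, T cells and macrophages also express the 43 genes, and the part of these cells in the results below was not tested.

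Per kilobase of merged exons, the highest level among the 43 genes over all 23 libraries belonged to Pcna, the replication clamp, with a median of 99.3 CPM per kb. It was followed by Ccnb2 (cyclin B2) at 38.7, Birc5 (survivin, of the chromosomal passenger complex) at 33.2 and Ube2c (the ubiquitin-conjugating enzyme of the anaphase-promoting complex) at 25.7 CPM per kb. At the other end stood Cdc6, which loads the helicase at origins, at 0.343, Kif22 at 0.508 and the kinase Plk1 at 0.809 CPM per kb. Pcna also varied least across libraries, with an SD of 0.51 on the log2 CPM scale over 23 libraries, and Aurka, the centrosomal Aurora kinase, varied most with an SD of 3.47. Cdc20 and Aurka were at or under the floor in 4 libraries each, Ccne1 and Kif20a in 6 each and Plk1 in 9. Strand was not stated for the counting, so levels of the genes that overlap another gene, Ccne2, Cdc20, Ube2c and Kif20a among them, are uncertain to that extent. Pcna, Tyms, Ccnb1, Ccnb2 and Kif22 have annotated pseudogenes that could share reads.

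As a single value per library, the mean log2 CPM of the 43 genes was 3.83 and 3.55 in untreated DC1a cells, 3.62 and 2.61 in DC1b, 3.26 and 3.38 in DC2 and 3.35 and 1.72 in DC3 cells of pools 1 and 2. In TLI mice, DC1a cells had 6.28, 5.13, 4.41 and 4.29 in pools 1 to 4, and DC1b cells 4.41, 4.14, 3.15 and 3.20. The DC2 libraries of pools 1, 3 and 4 had 4.89, 1.57 and 3.48, and the DC3 libraries of pools 1 to 4 had 5.72, 5.71, 2.81 and 3.89. The libraries of TLI pools 1 and 2 were thus the highest of their subset in each of the 4 subsets. Over all subsets the mean was 5.18 ± 0.77 (SD, n = 7) in TLI pools 1 and 2, 3.35 ± 0.91 (SD, n = 8) in pools 3 and 4 and 3.17 ± 0.69 (SD, n = 8) in untreated mice. Since libraries of a pool share mice, and bulk RNA cannot tell more cycling cells from more RNA per cell, these are levels of the sorted populations. The summed CPM of the 43 genes ran from 731.7 in untreated DC3 cells of pool 2 to 5278 in TLI DC1a cells of pool 1.

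**Figure D1:**
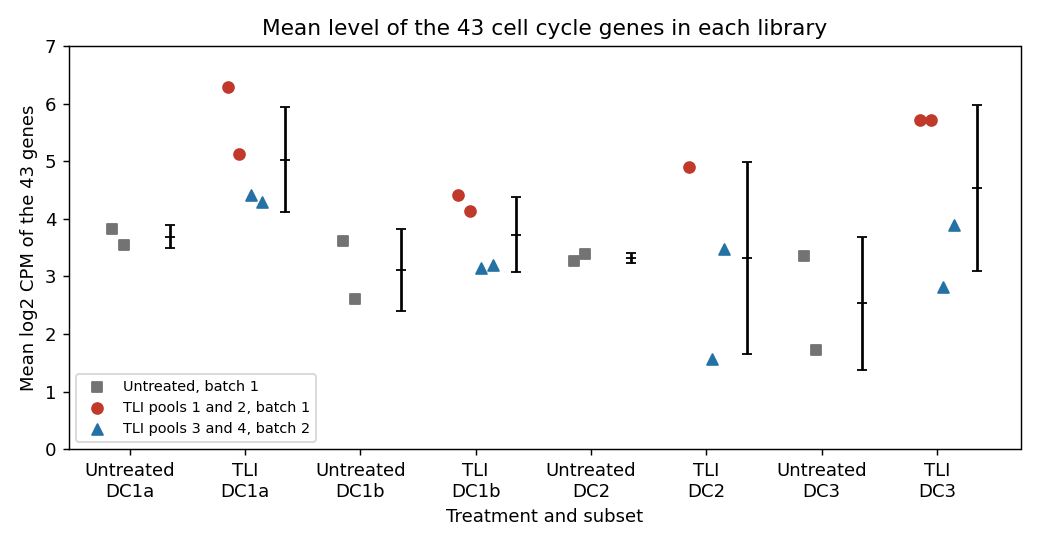
Mean log2 CPM of the 43 cell cycle genes in each of 23 libraries (y axis) by treatment and subset (x axis), with red circles for TLI pools 1 and 2, blue triangles for TLI pools 3 and 4 and grey squares for untreated pools. Black marks give the mean and SD of each group, and the libraries of TLI pools 1 and 2 sit at 4.14 to 6.28, above the other libraries of their own subset.

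**Figure D2:**
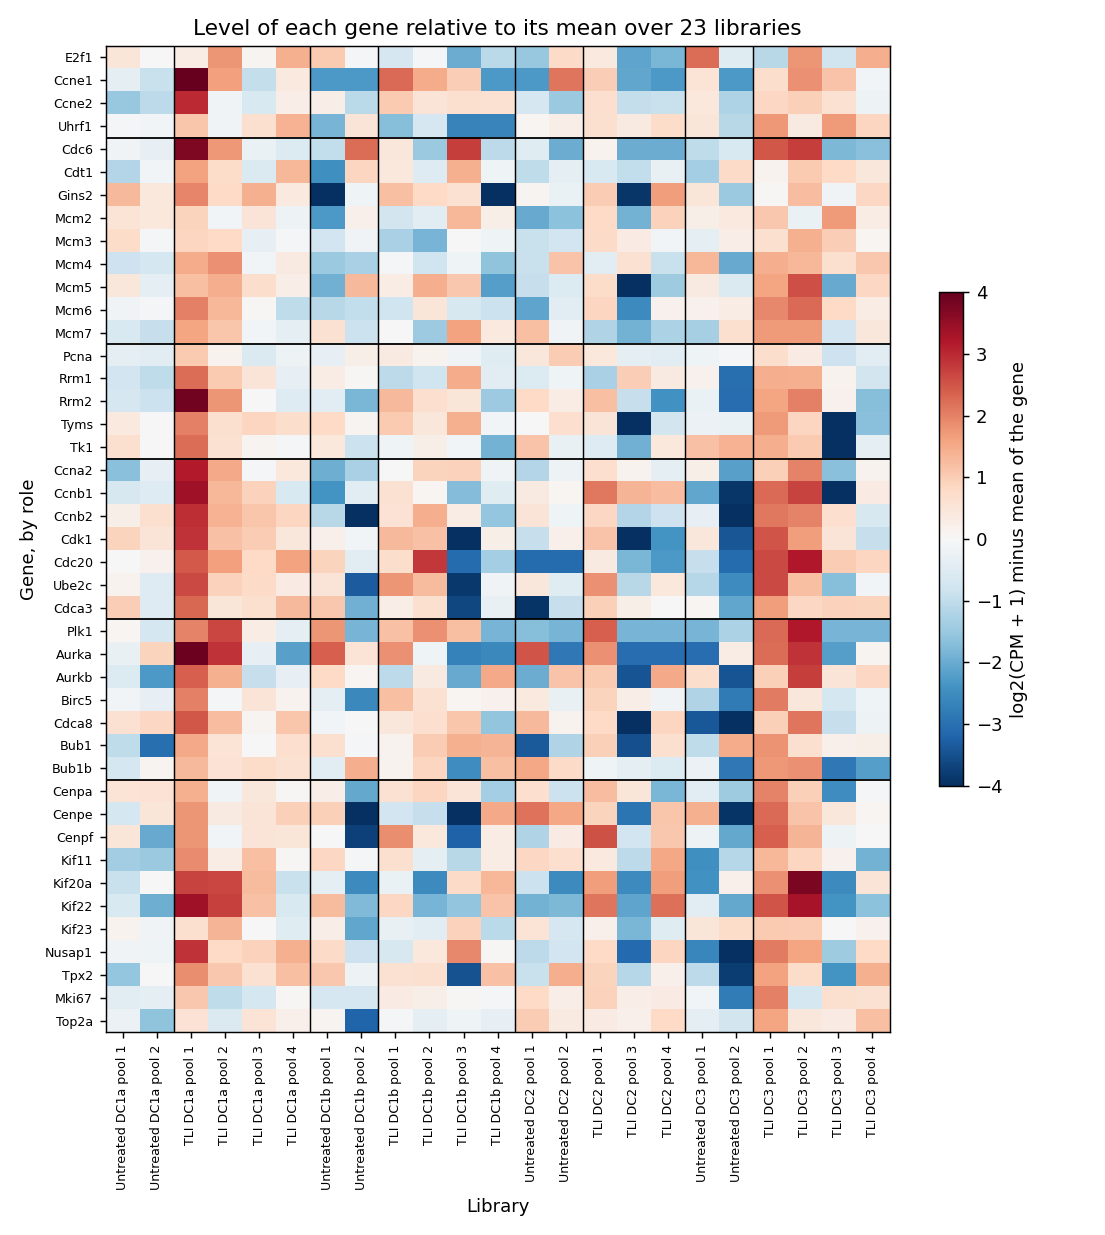
Log2(CPM + 1) of each of the 43 genes minus the mean of that gene over 23 libraries (colour, limited to 4 in each direction), with genes in rows ordered by role and libraries in columns. TLI DC1a pool 1 and both TLI DC3 libraries of pools 1 and 2 are red through most rows, and the dark blue cells are single libraries in which a gene was near or at 0.

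The first comparison sets TLI pools 3 and 4 (batch 2) against TLI pools 1 and 2 (batch 1) across the 4 subsets, which measures how far the TLI pools differ among themselves. All 23 libraries entered a fit of edgeR's quasi-likelihood test with a term for batch, and a gene was called at an adjusted p (Benjamini-Hochberg over 19597 genes) under 0.05. Libraries of a pool share mice but entered as separate samples, and no fit with a term for pool was run for this comparison. Its SEs and p-values thus measure the spread between libraries, not between pools of mice. Of the 43 genes, 40 had a lower fitted level in batch 2, with a median log2 fold change of -1.28 against -0.23 over all genes tested (-1.42 against -0.37 with RLE size factors). Called were 6 of 43 (14%), all of them lower, where 16.7% of all genes were called in either direction and 7.7% were called lower. Set against all genes, the share of called members was near the share called in either direction and above the share called lower. The members' median lay lower than that of all genes. DESeq2 called 20 of 43, where it called 30.2% of all genes, and 15 of 43 had an unadjusted p under 0.05 in edgeR against 31.3% of all genes. The 6 were Mcm6, Pcna, Rrm2, Cdk1, Ube2c and Aurka. Without the 4 libraries of TLI pool 1, a check added after seeing the data, 0 members were called and 38 of 43 were lower, with a median of -1.22 against 0.00 over all genes and 5 members at an unadjusted p under 0.05, while 12.0% of all genes were called. With the TLI libraries that went against their labels left out in turn, 10 members were called without TLI DC1b replicate 3, 6 without TLI DC1b replicate 4 and 6 without TLI DC2 replicate 3.

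Among the genes that start replication, Mcm6, a subunit of the replicative helicase (chromosome 1 of GRCm38, 128331590 to 128359664), was lower in batch 2. Mcm6 in untreated pools 1 and 2 stood at 28.1 and 29.3 CPM in DC1a, 13.9 and 15.2 in DC1b, 6.45 and 23 in DC2 and 35.1 and 38.2 CPM in DC3 cells. In Mcm6 the libraries of TLI pools 1 and 2 held 128 and 78.6 CPM in DC1a, 17.5 and 43.7 in DC1b, 56.8 in the DC2 library of pool 1 and 119 and 152 CPM in DC3 cells. Levels of Mcm6 in TLI pools 3 and 4 were 32 and 14.9 CPM in DC1a, 19.5 and 16.4 in DC1b, 4.45 and 34.7 in DC2 and 53.9 and 38 CPM in DC3 cells. Both pools of batch 1 were above both pools of batch 2 in DC1a and DC3, and in DC1b they overlapped. The fitted log2 fold change of Mcm6 was -1.5 ± 0.39 (SE; adjusted p = 0.0151, edgeR). Mcm2 and Mcm5 are subunits of the same ring, and neither was called. Mcm2 in untreated pools 1 and 2 stood at 26.9 and 24.4 CPM in DC1a, 2.91 and 21.2 in DC1b, 3.74 and 5.14 in DC2 and 21.5 and 23.9 CPM in DC3 cells. In Mcm2 the libraries of TLI pools 1 and 2 held 34.4 and 16.8 CPM in DC1a, 10.5 and 13.1 in DC1b, 32.3 in the DC2 library of pool 1 and 39.7 and 15 CPM in DC3 cells. Levels of Mcm2 in TLI pools 3 and 4 were 26.3 and 15.6 CPM in DC1a, 46.7 and 21.7 in DC1b, 4.19 and 35.5 in DC2 and 61.2 and 22.5 CPM in DC3 cells. Mcm2 followed no order of batch, and its highest value was in DC3 cells of TLI pool 3 (log2 fold change 0.35 ± 0.51, SE; adjusted p = 0.693, edgeR). Mcm5 in untreated pools 1 and 2 stood at 25.7 and 14.1 CPM in DC1a, 4.14 and 46.6 in DC1b, 9.24 and 12.4 in DC2 and 24 and 12.1 CPM in DC3 cells. In Mcm5 the libraries of TLI pools 1 and 2 held 44 and 52.6 CPM in DC1a, 23.1 and 52.5 in DC1b, 31.9 in the DC2 library of pool 1 and 57.4 and 115 CPM in DC3 cells. Levels of Mcm5 in TLI pools 3 and 4 were 31.1 and 22.6 CPM in DC1a, 40.5 and 3.27 in DC1b, 0 and 6.31 in DC2 and 3.86 and 33.7 CPM in DC3 cells. TLI and untreated libraries of Mcm5 overlapped in every subset, and the DC2 library of pool 3 had no count (batch log2 fold change -1.69 ± 0.84, SE; adjusted p = 0.18, edgeR).

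Both called genes of the clamp and nucleotide group separated the TLI batches completely. Pcna encodes the sliding clamp (chromosome 2, 132249162 to 132253314). Pcna in untreated pools 1 and 2 stood at 198 and 189 CPM in DC1a, 208 and 310 in DC1b, 361 and 526 in DC2 and 232 and 246 CPM in DC3 cells. In Pcna the libraries of TLI pools 1 and 2 held 539 and 291 CPM in DC1a, 336 and 290 in DC1b, 353 in the DC2 library of pool 1 and 424 and 329 CPM in DC3 cells. Levels of Pcna in TLI pools 3 and 4 were 174 and 226 CPM in DC1a, 238 and 185 in DC1b, 202 and 196 in DC2 and 146 and 195 CPM in DC3 cells. All 7 libraries of batch 1 had 290 CPM of Pcna or more and all 8 of batch 2 had 238 or fewer, while both untreated DC2 libraries and the untreated DC1b library of pool 2 reached the level of batch 1. Its log2 fold change was -0.90 ± 0.16 (SE; adjusted p = 0.000814, edgeR), the lowest adjusted p among the 43 genes. Rrm2 encodes the regulated subunit of ribonucleotide reductase, which makes deoxyribonucleotides (chromosome 12, 24708241 to 24714146). Rrm2 in untreated pools 1 and 2 stood at 20.5 and 18 CPM in DC1a, 24.7 and 8.82 in DC1b, 58.4 and 41.6 in DC2 and 28 and 3.17 CPM in DC3 cells. In Rrm2 the libraries of TLI pools 1 and 2 held 499 and 117 CPM in DC1a, 84.2 and 53.8 in DC1b, 77.8 in the DC2 library of pool 1 and 103 and 140 CPM in DC3 cells. Levels of Rrm2 in TLI pools 3 and 4 were 32.9 and 23 CPM in DC1a, 47.8 and 11.5 in DC1b, 17.1 and 5.49 in DC2 and 37.7 and 9.7 CPM in DC3 cells. Every library of batch 1 was above every library of batch 2, at 53.8 CPM or more against 47.8 or less, and TLI DC1a cells of pool 1 stood far above all others at 499 CPM. The log2 fold change of Rrm2 was -2.43 ± 0.54 (SE; adjusted p = 0.00536, edgeR).

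In G1/S control no gene was called. E2f1 encodes a transcription factor that switches on replication genes. E2f1 in untreated pools 1 and 2 stood at 5.14 and 3.33 CPM in DC1a, 7.93 and 3.24 in DC1b, 0.534 and 6.44 in DC2 and 19.5 and 2.1 CPM in DC3 cells. In E2f1 the libraries of TLI pools 1 and 2 held 4.33 and 13.9 CPM in DC1a, 1.73 and 3.16 in DC1b, 4.73 in the DC2 library of pool 1 and 1.03 and 13.8 CPM in DC3 cells. Levels of E2f1 in TLI pools 3 and 4 were 3.73 and 10.6 CPM in DC1a, 0.0898 and 1.06 in DC1b, 0 and 0.22 in DC2 and 1.49 and 10.8 CPM in DC3 cells. E2f1 was low throughout, its highest value was in an untreated library, and all 4 TLI DC1b libraries lay below both untreated DC1b libraries. Ccne2 encodes cyclin E2, the partner of CDK2 at the start of S phase. Ccne2 in untreated pools 1 and 2 stood at 1.26 and 2.18 CPM in DC1a, 6.89 and 2.1 in DC1b, 3.05 and 1.31 in DC2 and 7.7 and 1.78 CPM in DC3 cells. In Ccne2 the libraries of TLI pools 1 and 2 held 50.9 and 4.94 CPM in DC1a, 12.4 and 8.4 in DC1b, 9.41 in the DC2 library of pool 1 and 10.5 and 11.7 CPM in DC3 cells. Levels of Ccne2 in TLI pools 3 and 4 were 3.25 and 6.76 CPM in DC1a, 9.25 and 8.91 in DC1b, 2.35 and 2.51 in DC2 and 9.01 and 4.66 CPM in DC3 cells. All TLI libraries of DC1a and of DC1b were above both untreated libraries of the subset, and in DC2 and DC3 they overlapped. Their batch log2 fold changes were -1.71 ± 1.06 for E2f1 and -1.28 ± 0.57 for Ccne2 (SE; adjusted p = 0.29 and 0.134, edgeR).

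Of the mitotic cyclin group, Cdk1 and Ube2c were called, and all 7 genes of the group were lower in batch 2 with 6 of them at an unadjusted p under 0.05. Cdk1 encodes the kinase that drives mitosis (chromosome 10, 69335146 to 69352938). Cdk1 in untreated pools 1 and 2 stood at 49.2 and 37.7 CPM in DC1a, 30.3 and 24 in DC1b, 13.4 and 29.8 in DC2 and 36 and 1.5 CPM in DC3 cells. In Cdk1 the libraries of TLI pools 1 and 2 held 201 and 59.9 CPM in DC1a, 64.7 and 59.2 in DC1b, 58.8 in the DC2 library of pool 1 and 155 and 84.8 CPM in DC3 cells. Levels of Cdk1 in TLI pools 3 and 4 were 53.4 and 35.8 CPM in DC1a, 0.569 and 30.7 in DC1b, 0.201 and 4.14 in DC2 and 37.8 and 13.3 CPM in DC3 cells. All batch 1 libraries of TLI mice, at 58.8 CPM or more, were above all of batch 2 and all untreated libraries. Cdk1 had a log2 fold change of -2.47 ± 0.79 (SE; adjusted p = 0.0418, edgeR), and it lost its call in 11 of the 15 fits that left out 1 TLI library, where the adjusted p reached 0.146 without TLI DC2 replicate 1. Ube2c lies on chromosome 2 from 164769898 to 164778822. Ube2c in untreated pools 1 and 2 stood at 58.5 and 37 CPM in DC1a, 76.6 and 4.3 in DC1b, 72.5 and 37.7 in DC2 and 23.4 and 8.44 CPM in DC3 cells. In Ube2c the libraries of TLI pools 1 and 2 held 331 and 102 CPM in DC1a, 182 and 128 in DC1b, 192 in the DC2 library of pool 1 and 334 and 122 CPM in DC3 cells. Levels of Ube2c in TLI pools 3 and 4 were 89.8 and 66.9 CPM in DC1a, 2.69 and 48.3 in DC1b, 23.7 and 70.5 in DC2 and 15.6 and 49.1 CPM in DC3 cells. The same separation held for Ube2c, with 102 CPM or more in batch 1 and at most 89.8 CPM elsewhere. Its log2 fold change was -2.25 ± 0.62 (SE; adjusted p = 0.0201, edgeR). Ccnb1 encodes cyclin B1, which activates Cdk1. Ccnb1 in untreated pools 1 and 2 stood at 9.76 and 10.8 CPM in DC1a, 2.23 and 11.6 in DC1b, 20.9 and 16.7 in DC2 and 2.97 and 0.142 CPM in DC3 cells. In Ccnb1 the libraries of TLI pools 1 and 2 held 178 and 41.9 CPM in DC1a, 24.9 and 17 in DC1b, 72.7 in the DC2 library of pool 1 and 80.2 and 109 CPM in DC3 cells. Levels of Ccnb1 in TLI pools 3 and 4 were 31.4 and 10.2 CPM in DC1a, 4.04 and 11.2 in DC1b, 42.8 and 38.9 in DC2 and 0 and 20.4 CPM in DC3 cells. Within each subset the batch 1 libraries of Ccnb1 were above those of batch 2, and the log2 fold change of -2.11 ± 0.88 (SE) was not called (adjusted p = 0.11, edgeR).

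From the mitotic kinases, Aurka had the largest fold change of the 6 called genes (chromosome 2, 172356190 to 172370535). Aurka in untreated pools 1 and 2 stood at 5.62 and 14.1 CPM in DC1a, 42.3 and 11 in DC1b, 46.3 and 0.14 in DC2 and 0 and 9.12 CPM in DC3 cells. In Aurka the libraries of TLI pools 1 and 2 held 124 and 60.5 CPM in DC1a, 28 and 6.33 in DC1b, 28.1 in the DC2 library of pool 1 and 38 and 60.4 CPM in DC3 cells. Levels of Aurka in TLI pools 3 and 4 were 5.57 and 0.841 CPM in DC1a, 0.269 and 0.363 in DC1b, 0 and 0 in DC2 and 0.778 and 7.91 CPM in DC3 cells. In every subset batch 1 was above batch 2, and untreated libraries covered the range from 0 to 46.3 CPM. The fitted log2 fold change was -5.58 ± 1.36 (SE; adjusted p = 0.00967, edgeR). No gene of the kinetochore, spindle and chromosome group was called, and Mki67 and Top2a, used as markers of proliferation, overlapped between the batches. Mki67 encodes the Ki-67 protein that coats mitotic chromosomes. Mki67 in untreated pools 1 and 2 stood at 66.9 and 70.2 CPM in DC1a, 57 and 57.5 in DC1b, 161 and 110 in DC2 and 84.2 and 12.3 CPM in DC3 cells. In Mki67 the libraries of TLI pools 1 and 2 held 196 and 44.8 CPM in DC1a, 116 and 107 in DC1b, 175 in the DC2 library of pool 1 and 373 and 55.5 CPM in DC3 cells. Levels of Mki67 in TLI pools 3 and 4 were 56.2 and 95.7 CPM in DC1a, 95.7 and 88.5 in DC1b, 110 and 115 in DC2 and 143 and 139 CPM in DC3 cells. The 4 TLI DC1b libraries lay above both untreated ones, and the other subsets overlapped. Top2a encodes the topoisomerase that untangles sister chromatids. Top2a in untreated pools 1 and 2 stood at 38.2 and 14.2 CPM in DC1a, 49.5 and 4.02 in DC1b, 91.9 and 58.1 in DC2 and 34.8 and 27.2 CPM in DC3 cells. In Top2a the libraries of TLI pools 1 and 2 held 68.9 and 30.1 CPM in DC1a, 43.2 and 34.8 in DC1b, 56.8 in the DC2 library of pool 1 and 137 and 63.2 CPM in DC3 cells. Levels of Top2a in TLI pools 3 and 4 were 67.1 and 51.9 CPM in DC1a, 40.4 and 35.6 in DC1b, 52.9 and 79.1 in DC2 and 57.7 and 105 CPM in DC3 cells. In DC3 all 4 TLI libraries of Top2a were above both untreated ones, and in the other subsets they overlapped. Batch log2 fold changes were -0.54 ± 0.40 for Mki67 and 0.02 ± 0.40 for Top2a (SE; adjusted p = 0.387 and 0.985, edgeR).

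**Figure D3:**
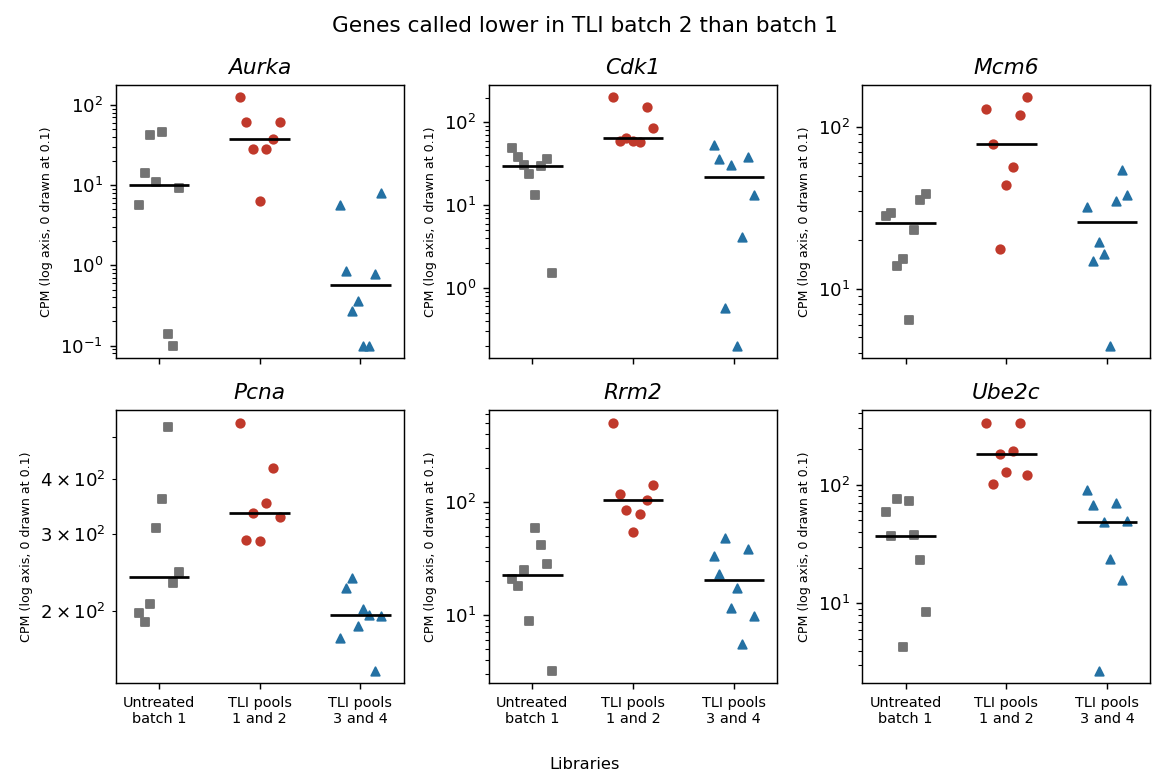
CPM on a log axis of the 6 genes called lower in TLI batch 2 than in batch 1, with a point per library (8 untreated, 7 of TLI pools 1 and 2, 8 of TLI pools 3 and 4) and the median of each set as a line. Pcna, Rrm2, Cdk1 and Ube2c do not overlap between the TLI batches, and 2 libraries of Aurka at 0 in batch 2 and 1 in untreated mice are drawn at 0.1.

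Within single subsets, DC3 cells showed the most members with both pools of batch 1 above both of batch 2. There were 32 of 43 in DC3, where 22.7% of all genes tested met the same rule, 24 of 43 in DC1a (27.2% of all genes) and 17 of 43 in DC1b (20.5%). In DC2, with 1 library in batch 1, there were 29 of 43 against 37.4% of all genes. Summed erythroid, NK cell, T cell, macrophage and DC marker transcripts moved with the batch in the same direction, with the values given above. Neutrophil sums did so in DC2 and DC3 only. Sums of 3 plasma cell genes (Jchain, Sdc1 and Mzb1) went the other way in DC1b, at 4340 and 1100 CPM in batch 1 against 15600 and 5310 CPM in batch 2. The plasma cell sums overlapped in DC1a and DC3, and in DC2 batch 1 was higher.

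Promoter sequences of 4 called genes are shown, to print the letters searched for elements known from promoters of cell cycle genes. The share of members called was near the share of all genes called in either direction. In mitotic genes, CCAAT boxes bound by NF-Y often stand near a CHR element (TTTGAA) that recruits the MuvB complexes, and replication genes carry E2F sites. RefSeq promoters on GRCm38.p6 matched 36 of the 43 genes with 38 start sites, and the 250 bases before each were searched on both strands for CCAAT, for TTTGAA and for the E2F letters TTTCCCGC, TTTCGCGC, TTTGCCGC and TTTGGCGC, with overlapping matches allowed. CCAAT was present in 78.9% of member promoters and 33.8% of 32851 promoters of the whole table, TTTGAA in 23.7% and 16%, and an E2F sequence in 15.8% and 1.86%. By role, CCAAT stood in 90.5% of 21 promoters of the 3 mitotic groups and 64.7% of the 17 others, TTTGAA in 38.1% and 5.88%, and an E2F sequence in 4.76% and 29.4%. The printed sequences of Cdk1, Ube2c and Rrm2 end where an annotated exon of the gene begins. That of Mcm6 ends at its RefSeq start site, upstream of the annotated exon. Sequences of Aurka and Pcna are left out because their windows hold exons of a neighbouring gene. The 4 printed sequences lie at chr10:69352939-69353162 (minus strand), chr2:164769679-164769897 (plus), chr1:128359706-128359955 (minus) and chr12:24708004-24708240 (plus). Capitals mark the matched letters on either strand.
Cdk1: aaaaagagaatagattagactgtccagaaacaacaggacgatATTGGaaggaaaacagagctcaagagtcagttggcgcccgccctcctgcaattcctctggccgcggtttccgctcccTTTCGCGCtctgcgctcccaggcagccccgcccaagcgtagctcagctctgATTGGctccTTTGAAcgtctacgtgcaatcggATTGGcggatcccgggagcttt
Ube2c: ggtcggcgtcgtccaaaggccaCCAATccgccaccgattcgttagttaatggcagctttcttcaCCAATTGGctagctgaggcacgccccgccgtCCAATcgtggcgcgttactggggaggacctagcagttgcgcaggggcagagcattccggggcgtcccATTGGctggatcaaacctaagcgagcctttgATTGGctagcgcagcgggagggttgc
Mcm6: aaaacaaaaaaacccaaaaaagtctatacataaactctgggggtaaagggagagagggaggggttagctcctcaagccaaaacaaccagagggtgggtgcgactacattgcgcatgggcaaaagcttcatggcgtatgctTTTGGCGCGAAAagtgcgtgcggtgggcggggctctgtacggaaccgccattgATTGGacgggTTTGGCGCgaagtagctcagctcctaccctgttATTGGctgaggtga
Rrm2: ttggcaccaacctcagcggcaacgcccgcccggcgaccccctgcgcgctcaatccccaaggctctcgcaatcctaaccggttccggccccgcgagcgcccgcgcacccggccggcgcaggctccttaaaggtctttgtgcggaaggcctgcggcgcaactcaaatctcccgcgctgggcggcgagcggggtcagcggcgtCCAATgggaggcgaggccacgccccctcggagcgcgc
The Cdk1 sequence holds 3 CCAAT matches, 1 TTTGAA and 1 E2F sequence, that of Ube2c 6 CCAAT matches, Mcm6 2 CCAAT and 3 E2F matches (2 of them overlapping), and Rrm2 a single CCAAT. In the exon part of the 250 bases, which was searched but is not printed, Ube2c holds 1 TTTGAA match and Cdk1 1 more, and the shares above count them. A match is a run of letters and no evidence that a factor binds there.

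The second comparison asks how the 43 genes differ between TLI and untreated mice in each subset. Since untreated mice lie in batch 1 only, the fitted difference with the batch term is that between TLI mice at the level of batch 1 and untreated mice. No member was called in any of the 4 subsets by edgeR. The fitted level in TLI mice was higher for 42 of 43 genes in DC1a, 37 in DC1b, 31 in DC2 and 42 in DC3. Median log2 fold changes of the members were 2.08 in DC1a, 1.14 in DC1b, 0.70 in DC2 and 2.12 in DC3, beside medians over all genes of 0.15, 0.09, 0.02 and -0.05. Unadjusted p lay under 0.05 for 9 members in DC1a, 5 in DC1b, 5 in DC2 and 13 in DC3, all of them higher in TLI mice, where 9.57%, 12.1%, 8.81% and 10.2% of all genes lay under it in either direction. DESeq2 called 5, 4, 2 and 7 members and 3.85%, 6.47%, 4.47% and 3.67% of all genes. The counts in DC1b (unadjusted) and in DC2 (both) were thus near the background. After adjustment, edgeR called 0.0102% of all genes in DC1a, 0.454% in DC1b, 0.117% in DC2 and 0.0255% in DC3. In a fit of the batch 1 libraries alone the medians were 1.91 in DC1a, 0.33 in DC1b, 0.86 in DC2 and 2.17 in DC3, with 42, 29, 33 and 41 genes higher and 0 called, so that the DC1b value of 1.14 draws on pools 3 and 4 through the batch term. The spread between libraries was wide, with a biological coefficient of variation of 108%, so that a gene that was not called is not shown to be unchanged.

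By role, the largest median in DC3 was that of the mitotic cyclin group, at 3.23 on the log2 scale with 4 of 7 genes at an unadjusted p under 0.05. The mitotic kinases followed at 3.00 with 2 of 7 and the kinetochore and spindle group at 2.73 with 5 of 11, whereas origin licensing genes had 1.17 with 1 of 9 and the clamp and nucleotide group 0.87 with 1 of 5. In DC1a the group medians lay closer together, from 1.66 for origin licensing to 2.83 for the mitotic kinases. DC1b ran from 0.24 in G1/S control to 1.78 in the mitotic cyclins, and DC2 from 0.03 to 1.95 in the same groups. In DC3 the lowest adjusted p among the members was 0.249 (edgeR) for Birc5, with a log2 fold change of 3.00 ± 0.76 (SE). Birc5 stood at 448, 145, 65.3 and 93.2 CPM in TLI DC3 cells of pools 1 to 4 and at 45.2 and 14.1 CPM in untreated DC3 cells, so that every TLI library was above both untreated ones. Cdca8 (borealin), of the same complex, was at 42.9, 101, 11.2 and 19 CPM against 1.17 and 0.214 CPM in DC3 (log2 fold change 6.26 ± 1.64, SE; adjusted p = 0.279, edgeR). Both were picked out after their values were seen.

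Ccnb1 in DC3 had a log2 fold change of 5.47 ± 1.83 (SE; adjusted p = 0.377, edgeR) and Ube2c 3.58 ± 1.22 (SE; adjusted p = 0.379, edgeR). In the same subset Rrm2 had 3.00 ± 1.02 (SE; adjusted p = 0.381, edgeR) and Mki67 2.12 ± 0.76 (SE; adjusted p = 0.395, edgeR). For DC1a the lowest adjusted p was that of Pcna, at 1.03 ± 0.28 (SE; adjusted p = 0.285, edgeR), followed by Rrm2 at 3.58 ± 1.04 (SE; adjusted p = 0.307, edgeR) and Ccne2 at 3.54 ± 1.11 (SE; adjusted p = 0.356, edgeR). Mcm2 was the single member with a lower fitted level in TLI DC1a cells, at -0.29 ± 0.85 (SE; adjusted p = 0.97, edgeR). In DC1b the lowest adjusted p was that of Ccna2, cyclin A2, at 3.13 ± 1.03 (SE; adjusted p = 0.227, edgeR), followed by Birc5 at 2.23 ± 0.74 (SE; adjusted p = 0.231, edgeR). Birc5 was at 247, 163, 113 and 120 CPM in TLI DC1b cells of pools 1 to 4 and at 82.5 and 16.9 CPM in untreated ones, without overlap. In DC2 it was that of Cdc20 (adjusted p = 0.279, edgeR), the activator of the anaphase-promoting complex, with 9.89, 1.35 and 0.722 CPM in TLI pools 1, 3 and 4 and no count in either untreated library, for which no fold is given. The next in DC2 was Mcm6 at 1.92 ± 0.76 (SE; adjusted p = 0.491, edgeR). These fitted values set TLI mice at the level of pools 1 and 2, in which the erythroid sum was at least 13500 CPM.

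**Figure D4:**
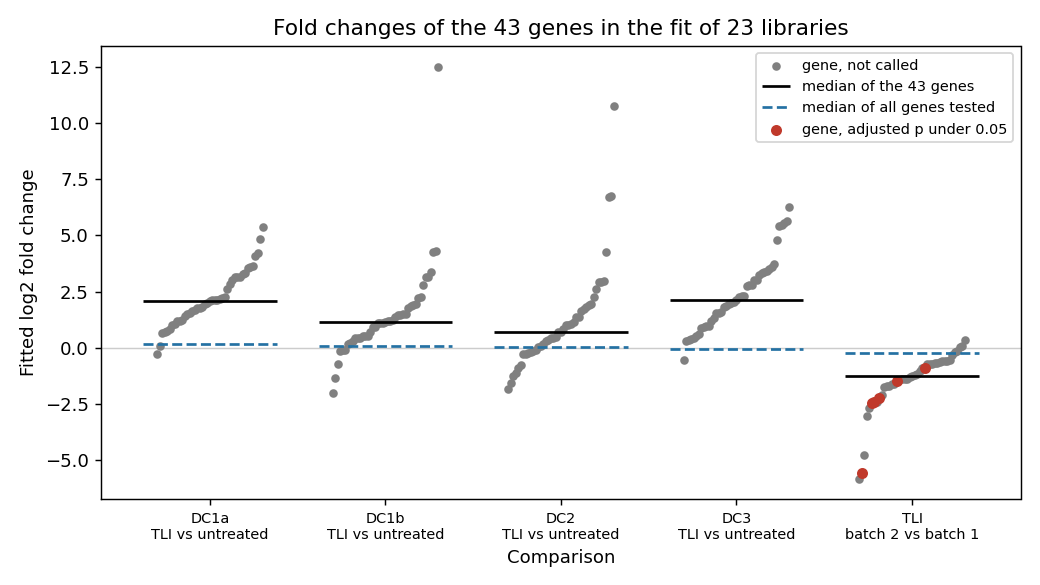
Fitted log2 fold change (y axis) of each of the 43 genes in the 4 comparisons of TLI with untreated mice and in the comparison of the TLI batches, with genes ordered by value within each column. Solid lines give the median of the 43 genes (2.08, 1.14, 0.70, 2.12 and -1.28) and dashed lines that of all genes tested, and the 6 called genes are red.

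With TLI pools 3 and 4 alone against untreated mice, a check added after seeing the data, the medians of the members were 0.57 in DC1a, 0.36 in DC1b, -0.15 in DC2 and 0.55 in DC3, with 32, 28, 20 and 31 of 43 genes higher in TLI mice. In that fit the median over all genes was 0.00 in DC1a and DC1b, -0.03 in DC2 and -0.15 in DC3, and 1 member was called, Uhrf1 in DC1b, where 3.1% of all genes were called. Uhrf1 was lower in TLI mice there, at 0.0898 and 0.099 CPM (3 counts in each library, at the floor) in pools 3 and 4 against 0.916 and 8.93 CPM in untreated DC1b cells. Leaving out only TLI pool 1 gave medians of 1.57, 1.19, 0.38 and 1.88 and 0 calls. In raw levels, every TLI library of batch 1 was above both untreated libraries for 32 of 43 members in DC1a (24.3% of all genes), 16 in DC1b (19.6%), 25 in DC2 (32.6%) and 34 in DC3 (15.7%). For batch 2 the numbers were 21 in DC1a (22.7% of all genes), 8 in DC1b (21.9%), 6 in DC2 (20.6%) and 9 in DC3 (19.1%). All TLI libraries together were above both untreated ones for 17 members in DC1a, 5 in DC1b, 5 in DC2 and 7 in DC3, where 5.64%, 8.29%, 10.7% and 4.23% of all genes met the rule. Transcripts of other cells differed within subsets in this comparison too. The erythroid sum was 1530 and 5490 CPM in TLI DC1b cells of pools 3 and 4 against 45.7 and 62.4 CPM in untreated ones, and 230 and 454 CPM in DC3 against 92.6 and 33.4 CPM, while in DC1a and DC2 it overlapped. The neutrophil sum was above that of untreated mice in every subset, at 1880 and 10300 CPM against 16.9 and 0.747 CPM in DC1b. Plasma cell sums were higher in DC1a, DC1b and DC2, at 15600 and 5310 CPM against 764 and 742 CPM in DC1b. In DC3 they were lower, at 2130 and 3620 CPM against 8310 and 4080 CPM. Macrophage sums in DC1b were 356 and 215 CPM against 59.2 and 61.6 CPM. They were lower in DC1a and DC3 and overlapped in DC2. Plasmacytoid DC genes in DC1b summed to 74.2 and 27.8 CPM against 2260 and 2520 CPM. NK and T cell sums were above those of untreated mice in both pools in DC1a and DC2. The NK cell sums in DC2 were near the floor, at 0.402 and 0.22 CPM against 0.115 and 0 CPM. In DC3 the NK cell sum was below that of untreated mice, at 38.5 and 84.5 CPM against 338 and 200 CPM. The part of these other cells in the members' values was not tested.

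**Figure D5:**
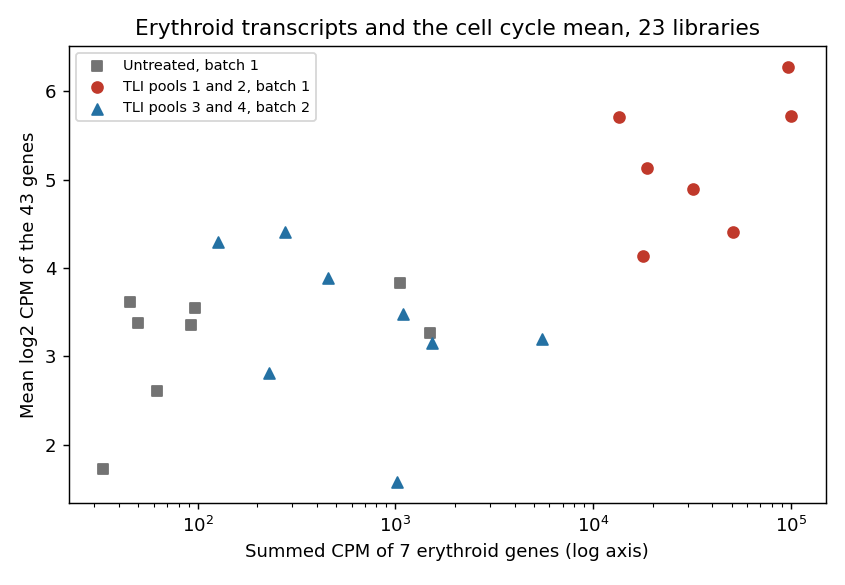
Mean log2 CPM of the 43 genes (y axis) against the summed CPM of 7 erythroid genes on a log axis (x axis) in 23 libraries, coloured by treatment and batch. The 7 libraries of TLI pools 1 and 2 lie at 13500 CPM or more on the x axis and at 4.14 or more on the y axis, and the other 16 lie at 5490 CPM or less and at 4.41 or less.

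Whether the difference between TLI and untreated mice itself differed between subsets was tested as an interaction in the same fit. No member was called by edgeR (lowest adjusted p = 0.613) or by DESeq2, which called 0.117% and 2.0% of all genes, and 4 members were at an unadjusted p under 0.05 against 7.61% of all genes. The order of the 4 subset medians given above is therefore a description.

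Between subsets of the same treatment, edgeR called no member in any of the 12 comparisons. Among TLI mice the members' medians relative to DC1a cells were -0.83 in DC1b (38 of 43 lower), -0.85 in DC2 (36 lower) and -0.24 in DC3 (26 lower), beside 0.02, 0.02 and -0.01 over all genes. Unadjusted p lay under 0.05 for 2, 5 and 0 members (13.5%, 17.3% and 10.4% of all genes), and DESeq2 called 1, 2 and 0 members (7.61%, 12.5% and 5.58% of all genes), while edgeR called 1.44%, 3.43% and 0.75% of all genes. The shares of members were below those of all genes. Without TLI pool 1 the 3 medians were -0.23 (26 lower), -0.39 (28 lower) and 0.01 (20 lower), and without pools 1 and 2 they were -0.12 (24 lower), -0.55 (30 lower) and -0.30 (28 lower). Relative to DC1b, the medians were 0.01 in DC2 and 0.46 in DC3, with 3 and 5 members at an unadjusted p under 0.05 (10.2% and 11.7% of all genes), 2 and 3 called by DESeq2 (4.98% and 6.45% of all genes) and 0.225% and 1.14% of all genes called by edgeR. DC3 against DC2 gave 0.58, with 3 members at an unadjusted p under 0.05 (12.9% of all genes), 1 called by DESeq2 (8.03% of all genes) and 1.33% of all genes called by edgeR. Without TLI pool 1 these 3 medians were -0.14, 0.24 and 0.58, and without pools 1 and 2 they were -0.29, -0.18 and 0.31. DC3 against DC1b thus changed sign, and DC2 against DC1b went from 0.01 to a negative median in both fits. Uhrf1, which recruits the DNA methyltransferase to replicated DNA, was at 1.11, 3.39, 0.0898 and 0.099 CPM in TLI DC1b cells and at 14, 5.33, 9.81 and 17.1 CPM in TLI DC1a cells, so that the subsets did not overlap, and it was picked out after its values were seen. It had the lowest adjusted p of the members in DC3 against DC1b, at 0.0972 with a log2 fold change of 4.14 ± 1.10 (SE, edgeR), and was called there and against DC1a without TLI DC1b replicate 2 or without TLI pools 1 and 2.

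In untreated mice the members' medians relative to DC1a were -0.18 in DC1b, 0.18 in DC2 and -0.27 in DC3, with 20, 25 and 17 of 43 higher. Unadjusted p was under 0.05 for 1, 4 and 3 members (10.5%, 12.7% and 7.32% of all genes), DESeq2 called 1, 2 and 1 (6.46%, 9.55% and 4.1% of all genes), and edgeR called 0.939%, 2.13% and 0.245% of all genes. Relative to DC1b they were 0.31 in DC2 and -0.12 in DC3, and DC3 against DC2 gave -0.33. In these 3 comparisons 3, 4 and 6 members were at an unadjusted p under 0.05 (8.99%, 8.32% and 10.9% of all genes), DESeq2 called 2 in each (5.52%, 4.75% and 7.65% of all genes), and edgeR called 0.459%, 0.444% and 0.913% of all genes. These counts of members lay near or under the shares of all genes. Pcna came closest to a call, at 361 and 526 CPM in DC2 against 198 and 189 CPM in DC1a (log2 fold change 1.20 ± 0.30, SE; adjusted p = 0.0515, edgeR), and was called there with RLE size factors. Cdca8 was at 1.17 and 0.214 CPM in untreated DC3 cells and at 54.9 and 24 CPM in DC2 (log2 fold change -5.83 ± 1.64, SE; adjusted p = 0.123, edgeR), and was called in the fit of batch 1 alone.

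A wider list of 136 other cell cycle genes, of which 135 were tested, gives the rest of the machinery. Between TLI batches 24 of 135 (17.8%) were called, near the 16.7% of all genes called in either direction. Of the 24, 19 were lower and 5 higher in batch 2, where 7.7% of all genes were called lower. The median of the 135 was -1.14 on the log2 scale, beside -0.23 over all genes. The D cyclin Ccnd2 fell by 2.00 on the log2 scale (SE 0.44, adjusted p = 0.00481, edgeR), and E2f4, which acts mainly in repressor complexes, fell by 1.96 (SE 0.55, adjusted p = 0.0214, edgeR). Inhibitors of the cycle moved both ways, since Cdkn1a, the p53 target p21, fell by 1.96 (SE 0.40, adjusted p = 0.0027, edgeR) while Cdkn1b (p27) rose by 0.93 (SE 0.27, adjusted p = 0.027, edgeR). Picked out after their values were seen, the other genes called higher in batch 2 were Orc4, Hells, Rpa3 and Rb1, the retinoblastoma protein that holds E2F in check, at 1.02, 1.3, 1.36 and 1.65 on the log2 scale. Ccnd1 and Ccnd3 were not called (adjusted p = 0.334 and 0.295, edgeR), nor were E2f2, E2f3, E2f5, E2f6, E2f7 and E2f8, whose batch log2 fold changes ran from -2.15 in E2f2 to 0.28 in E2f3.

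Between TLI and untreated mice none of the 135 was called by edgeR. Medians were 1.28 in DC1a, 0.46 in DC1b, 0.22 in DC2 and 1.5 in DC3, beside 0.15, 0.09, 0.02 and -0.05 over all genes. Unadjusted p lay under 0.05 for 14, 5, 9 and 27 of the 135, where 9.57%, 12.1%, 8.81% and 10.2% of all genes lay under it. The counts in DC1a, DC1b and DC2 were thus near or under the background. In DC1a and DC3 57 of 60 other mitotic genes were higher in TLI mice, with medians of 2.1 and 2.86, against 36 of 45 other replication genes with medians of 0.79 and 1.08. Cdkn1b was at 10.3, 5.79, 16.2 and 12.2 CPM in TLI DC3 cells and 31.4 and 17.6 CPM in untreated DC3 cells, without overlap (log2 fold change -1.66 ± 0.45, SE; adjusted p = 0.292, edgeR). Cdkn1a stood at 117, 309, 145 and 25.4 CPM in TLI DC1b cells and 55.5 and 24.5 CPM in untreated ones (log2 fold change 2.77 ± 0.75, SE; adjusted p = 0.134, edgeR). The groups overlapped through TLI pool 4. Between subsets, Cdkn1a was lower in TLI DC3 than in TLI DC1b cells by -2.77 ± 0.56 (SE; adjusted p = 0.0189, edgeR). In untreated mice Ccnd2 was higher in DC2 than in DC1a cells by 4.28 ± 0.94 (SE; adjusted p = 0.0227, edgeR), and Hells, a chromatin remodeller, was lower in DC2 than in DC1a by -3.05 ± 0.77 and higher in DC3 than in DC2 by 3.44 ± 0.78 (SE; adjusted p = 0.0499 and 0.0485, edgeR).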

How the data were processed

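The authors trimmed reads with Trimmomatic, aligned them to GRCm38 with HISAT2 and derived estimated counts with StringTie, and the deposited table holds these estimated counts per gene, which are whole and not adjusted for depth or gene length. Cells were sorted in small numbers, and cDNA was amplified before library preparation, so counts are not independent molecules, and floors cover counting error only. Symbols and positions come from GENCODE M21, which gave a symbol to 47224 of 47729 identifiers.

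All 23 libraries entered a single fit (edgeR 4.0.16 in R 4.3.3, TMM factors, filterByExpr, quasi-likelihood test, Benjamini-Hochberg adjustment over 19597 genes) with a group for each subset and treatment and a term for batch, which is estimated from TLI mice alone and leaves 14 residual degrees of freedom. Libraries of a pool share mice but entered as separate samples, so p-values measure the spread between libraries. Log2 CPM used a prior count of 2. Standard errors are the fold change divided by the square root of F. Alternatives were DESeq2 1.42.0, RLE factors, other filters, no batch term, subsets of libraries, blocks for the pool and leaving out each library. The scripts were tested on simulated data in which chosen genes differed in TLI DC1a cells. The fit recovered 19 of 100 genes changed 4-fold and 46 of 100 changed 16-fold. The simulated libraries held no difference between batches or pools. Pool numbers in the labels pair the subsets of a pool. Deviations from the group mean correlated over genes at 0.0801 to 0.393 in TLI libraries of the same pool. These deviations still hold the difference between the TLI batches. In untreated libraries the correlations were -0.00585 to 0.0159, and with 2 libraries per group both pools give the same value. The 2 ranges therefore do not compare how far libraries of a pool resemble each other.

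The 43 genes, the wider list and the markers were chosen with earlier results of these data known. Values in every library are given for 10 genes that stand for the roles and for the genes called, and other genes by counts.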

Additional observations from a re-analysis of the deposited data

Results flagged for a closer look

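In the groups of 4 libraries (TLI DC1a, DC1b and DC3), 150 sets of values were screened for a library that stood far from the other 3, measured as its gap to the nearest library divided by the whole range on the log2 CPM scale. The screen covered the 43 genes, their mean and the 6 role means, so the sets are not independent. It picked 8 of the 150 sets, near the 1 in 20 that chance gives. In TLI DC1b cells of pool 4, the ratio was 0.833 for Ccne1, 0.936 for Gins2, 0.902 for Plk1 and 0.84 for Cenpa, each the lowest library, and the first 3 had 0 counts there. In TLI DC1b cells of pool 3, Cdk1 (0.839) and Tpx2 (0.907) were far below the other pools, at -0.64 and -0.94 log2 CPM. Tyms was high in TLI DC1a cells of pool 1 (0.844) at 7.32 log2 CPM against 5.96 to 6.17, and Cdca3 in TLI DC3 cells of pool 1 (0.893) at 6.08 against 5.23 to 5.32. Neither the mean of the 43 genes nor a role mean was picked, and none of the 43 genes was called by the interaction test of edgeR, with 4 at an unadjusted p under 0.05 and 0 called by DESeq2.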

How the results depend on the processing

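The number of members called changed most with DESeq2's test, to 5, 4, 2 and 7 in TLI against untreated DC1a, DC1b, DC2 and DC3 cells (3.85%, 6.47%, 4.47% and 3.67% of all genes) and to 20 between the TLI batches (30.2% of all genes). Among TLI subsets DESeq2 called 1 (DC1b against DC1a), 2 (DC2 against DC1a), 2 (DC2 against DC1b), 3 (DC3 against DC1b) and 1 (DC3 against DC2), where it called 4.98% to 12.5% of all genes, and among untreated subsets 1 (DC1b against DC1a), 2 (DC2 against DC1a), 1 (DC3 against DC1a), 2 (DC2 against DC1b), 2 (DC3 against DC1b) and 2 (DC3 against DC2), where it called 4.1% to 9.55%. Without TLI pool 1 the count between TLI batches was 0 (12.0% of all genes). Without TLI pools 1 and 2 Uhrf1 (1 member) was called in TLI against untreated DC1b and in TLI DC1b against DC1a and DC3 against DC1b. Pcna in untreated DC2 against DC1a was called (1) with RLE size factors, with at least 10 counts in every library, without TLI pool 1, without TLI pools 1 and 2 and with the pool within treatment as a replicate block. With batch 1 alone Cdca8 (1 member) was called in untreated DC3 against DC1a and against DC2. With the pool number as a replicate block Birc5 (1 member) was called in TLI against untreated DC1b. TLI and untreated pools share only a number. Their deviations from the group mean correlated at -0.0245 to 0.0382, and the block changed no other count by over 1.5 times.

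Leaving out 1 library at a time gave 5 to 10 members between TLI batches (10 without TLI DC1b replicate 3), 0 to 1 in TLI DC1b against DC1a and DC3 against DC1b (1 without TLI DC1b replicate 2) and in untreated DC1b against DC1a (1 without untreated DC1b replicate 1), and 0 in the 14 other comparisons. Cdk1 and Ube2c were not called without the filter on low counts (adjusted p = 0.13 and 0.0705, edgeR). The 6 called genes stayed lower in batch 2 in each of these fits that tested them, and the cause of the differences was not tested. The mean of untreated DC2 cells moved from 3.32 to 3.15 with a prior count of 0.5 and to 3.43 without TMM, and the other group means moved by less than 1 SD. With no batch term the medians of TLI against untreated were 1.42, 0.51, 0.30 and 1.69. Depth limits genes near 3 counts, and duplicates limit the untreated groups.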
